A study of Oncorhynchus mykiss with 20 samples.

Results

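The genes described here encode the proteasome and the ubiquitin system of rainbow trout (Oncorhynchus mykiss), measured as messenger RNA in whole intestine. Members were chosen by gene symbol. The symbols covered proteasome subunits, their activators, inhibitor and assembly factors (psm). Activating and conjugating enzymes of ubiquitin and ubiquitin-like tags (uba, ube2) were covered too. The rest were ligases (ube3, ubr, cullins), F-box proteins (fbx), deubiquitinases (usp, uch, otu) and UBX-domain adaptors (ubx). A gene table of RefSeq lists 130 such symbols, and 91 of them were found among the 25115 genes that could be paired with the deposited transcripts. No cullin was among them, and the only uba gene was uba2, a subunit of the enzyme that activates the ubiquitin-like tag SUMO. Of the 25115 genes, 6926 had a symbol that is no LOC placeholder. Any genes of this system under LOC names are therefore missing here. The 91 members comprised 24 psm genes and 67 others, of which F-box genes (26), conjugating enzymes (16) and USP deubiquitinases (10) were the largest classes. After a filter on low counts 85 members were tested. The 6 that did not pass were fbxl13, fbxo15, fbxo36a, fbxo36b, ubxn11 and psmg2.

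All fish came from all-female cohorts of 2 strains, a selected strain labelled Select (ARS-KO in the rearing notes) and a common commercial strain labelled Commercial. Both were raised from the egg side by side in spring water at 15°C, were moved after hatching to raceways of their own, and ate the same commercial starter feed. Intestines were taken at 20 days post hatch (dph), after 10 days of feeding, and at 65 dph, which gave 5 libraries each for Commercial 20 dph, Commercial 65 dph, Select 20 dph and Select 65 dph. Raceway and strain cannot be told apart in this design. The labels call the libraries of a group biological replicates without saying how many fish each holds, so p-values measure the spread between these libraries.

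Proteins destined for destruction are tagged with ubiquitin by a relay of an activating enzyme (E1), a conjugating enzyme (E2) and a ligase (E3), and F-box proteins are the substrate-binding parts of one large ligase family. Tagged proteins are unfolded by the ATPase ring of the 19S regulatory particle and cut inside the 20S core, a barrel of alpha and beta rings in which some beta subunits are the proteases. In immune tissue, catalytic beta subunits can be replaced by inducible ones, which changes the peptides available for presentation to T cells, and deubiquitinases remove or trim the tags.

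Libraries held 7314588 to 13682738 expected read counts, and the members took 0.177% to 0.229% of them. The 9 enterocyte markers in the files were all detected, at summed levels of 10610 to 19020 CPM, the count of a gene scaled to the size of its library. Some libraries stood apart. On the second principal component of all features, which held 8.8% of the variance, the score of Commercial 65 dph replicate 2 was -74.29 and that of Select 65 dph replicate 5 was -76.72, while the other 4 older Commercial libraries scored 65.54 to 74.91 and the other 4 older Select libraries -27.26 to -10.68. Select 20 dph replicate 1 scored -86.72, the other younger Select libraries higher. In Commercial 65 dph replicate 2, Select 65 dph replicate 5 and Select 65 dph replicate 2, the summed level of 3 smooth muscle markers was 305, 293 and 291 CPM, against 109 to 180.1 CPM elsewhere. The 4 liver markers in the files summed to 10360 CPM in Select 20 dph replicate 1 and to at most 212 CPM in every other library. Many trout genes have near-identical copies between which reads are divided, and transcripts without a match in the gene table are missing from a gene's sum, so levels of single copies are uncertain.

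Most of the 23 tested proteasome (psm) genes were lower in the older intestine of both strains with TMM scaling. TMM sets the bulk of features level between libraries. Of these 23 genes, 8 were called lower in both strains under each of 3 scalings. The share of all features that met this rule was not counted. It cannot exceed 7.22%, the share called lower with TPM in Commercial. With TMM, in Commercial, 31 of 85 tested members were called between 65 and 20 dph at an adjusted p under 0.05, 6 higher and 25 lower. Among all 32166 features tested the share called was 30.1%, with 14.5% higher and 15.6% lower. In Select, 40 members were called, 8 higher and 32 lower, where 34.3% of all features were called, 16.4% higher and 17.9% lower. Of 23 tested psm genes, 16 fell and 2 rose in Commercial, and 18 fell and 2 rose in Select. Of 62 tested members outside psm, 9 fell and 4 rose in Commercial, and 14 fell and 6 rose in Select. The median log2 fold change of the psm genes was -0.69 in Commercial and -0.77 in Select, beside -0.10 and -0.090 for the other members and 0.052 and 0.074 for all features. How far the genes fell depended on the scaling. Scaling by library size alone, and limma on log2(TPM + 1), were added after the data were seen, and they put the median of all features at 0.33 and 0.30 in Commercial and at 0.34 and 0.35 in Select. By library size 18 members were higher and 16 lower in Commercial, where 25.5% and 9.10% of all features were, and 22 and 22 in Select, where 27.7% and 11.3% were. With TPM 25 members were higher and 11 lower in Commercial, beside 32.4% and 7.22% of all features, and 30 and 15 in Select, beside 38.0% and 7.93%. Psm genes called lower then numbered 10 by library size and 8 with TPM in Commercial, and 14 and 10 in Select. The psm median was 0.74 below that of all features with TMM, 0.75 below by library size and 0.55 below with TPM in Commercial. In Select it was 0.84, 0.84 and 0.67 below. The TPM test differed in tool and in the added 1 as well as in scaling, and these parts were not tested apart. For the other members the median changed sign, to 0.17 and 0.29 in Commercial and 0.18 and 0.32 in Select, by library size and with TPM. The psm genes called lower in both strains under all 3 scalings were psma5, psmb2, psmb5, psmb7, psmc3, psmc6, psmd1 and psmd10, with psmd7 and psmd8 in Select alone. From here fell, rose and called refer to TMM scaling where no other is named.

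Markers of other cells also moved with age. The pancreas marker cpa5 fell in both strains under all 3 scalings, from 18.1 to 926 CPM and 30.4 to 914 CPM at 20 dph to 7.38 to 47.0 CPM and 8.78 to 63.1 CPM at 65 dph in Commercial and Select. The 4 proliferation markers in the files fell in both strains, and the liver markers fell for 1 of 4 in Commercial and 3 of 4 in Select. In Select at 20 dph the liver sum was 10360 CPM in replicate 1 and 17.95 to 109.7 CPM in the rest. At 65 dph it was 3.06 to 17.3 CPM, so the Select fall leans on 1 library. Of the 9 enterocyte markers 4 fell and 2 rose in Commercial and 3 fell in Select with TMM. By library size 3 were higher and 3 lower in each strain. With TPM 3 were higher and 3 lower in Commercial, and 3 higher and 1 lower in Select. The summed level of the enterocyte markers, in TMM-scaled CPM, was 15940 to 19020 and 10880 to 17460 CPM at 20 dph and 10820 to 15410 and 10610 to 15890 CPM at 65 dph. The part of these cells in the proteasome result was not tested. In bulk tissue, a smaller share of cells that express a gene and less of its RNA per cell cannot be told apart. The 5 members called higher in both strains and the 25 called lower in both left 1 called in Commercial alone and 10 in Select alone. None was called in opposite directions. The shares of all features for these counts were not computed. Those called in both strains cannot exceed 14.5% higher and 15.6% lower, the shares called in Commercial. Without the 2 libraries that lay beside each other, the counts were 27 in Commercial and 38 in Select, with 13 and 19 psm genes lower. Without Select 20 dph replicate 1 they were 36 members and 17 psm genes in Select. Shares of all features for these fits with libraries left out are not given here.

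**Figure D1:**
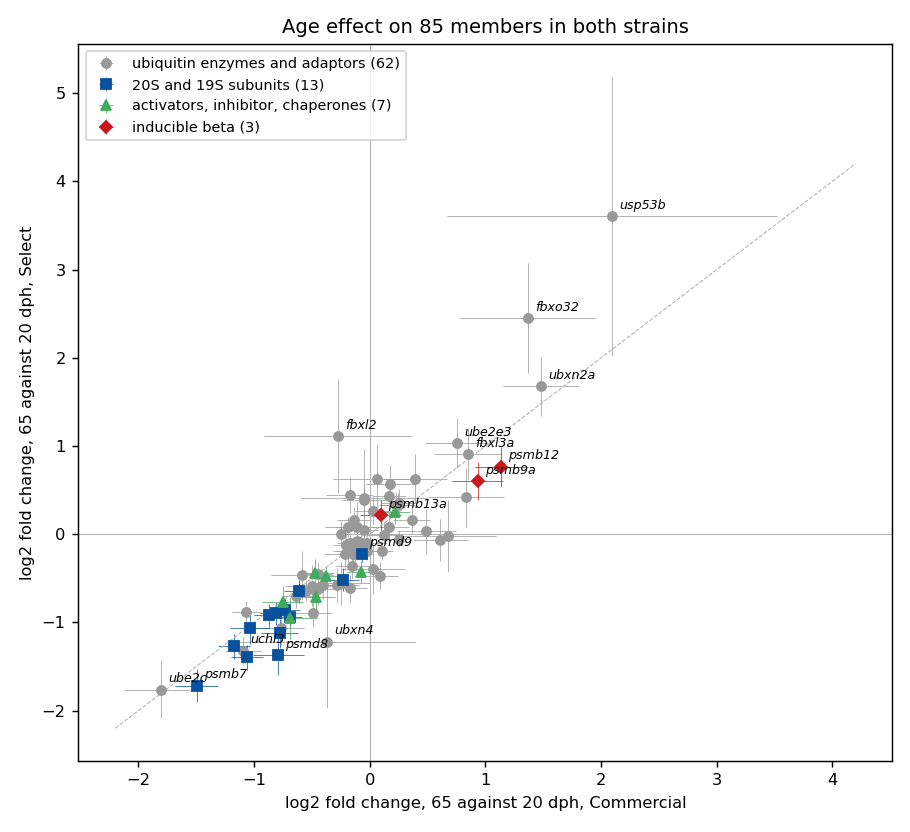
Log2 fold change from 20 to 65 dph in Select (vertical axis) against Commercial (horizontal axis) for the 85 tested members, with bars of 1 standard error and a dashed line of equality. With TMM scaling the 13 genes of the 20S and 19S classes (blue squares) all lie below 0 on both axes, and by library size or with TPM psmd9 lies above 0 in both strains and psma4 in Commercial, and the 3 inducible beta genes (red diamonds) lie above 0 on both.

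The 13 genes of the 20S core (psma4, psma5, psmb2, psmb5, psmb7) and of the 19S class (psmc3, psmc6, psmd1, psmd5, psmd7, psmd8, psmd9, psmd10) were first summed in each library. In Commercial the sum was 1096, 1166, 1033, 1223 and 940.3 CPM at 20 dph and 599, 472, 558, 796 and 549 CPM at 65 dph. In Select it was 1125, 1200.0, 1012, 1011 and 900.5 CPM at 20 dph and 578, 495, 499, 533 and 479 CPM at 65 dph. Every older library lay below every younger one in these TMM-scaled values. As a share of raw counts, all psm genes together took 0.126% ± 0.0115 (SD, n = 5) at 20 dph and 0.0972% ± 0.0154 at 65 dph in Commercial, and 0.125% ± 0.00744 and 0.0901% ± 0.00478 in Select. In Commercial these shares overlapped between the ages, with 0.124% in replicate 4 at 65 dph and 0.108% in replicate 5 at 20 dph. In Select they did not, at 0.114% to 0.134% at 20 dph and 0.0850% to 0.0953% at 65 dph. The highest older library, Commercial 65 dph replicate 4, had the group's highest level for 10 of the 13 genes, and the lowest, replicate 2, had the lowest level for 10 of 13. Among the younger libraries, Commercial 20 dph replicate 5 was lowest for 10 of 13 genes and Select 20 dph replicate 2 highest for 10 of 13.

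The steepest fall in the core was that of psmb7, which in mammals carries the trypsin-like protease site. In Commercial, psmb7 stood at 116, 138, 104, 130.1 and 100 CPM at 20 dph and at 40.4, 31.1, 41.9, 62.2 and 32.5 CPM at 65 dph. In Select it stood at 119.9, 125, 94.9, 104 and 80.6 CPM and at 40.7, 26.0, 25.3, 36.1 and 31.6 CPM at these ages. The ages did not overlap in either strain, and the log2 fold change was -1.50 (SE 0.19, adjusted p = 1.2e-05) in Commercial and -1.72 (SE 0.19, adjusted p = 4.01e-06) in Select. The chymotrypsin-like subunit psmb5 fell from 51.0 ± 6.68 (SD, n = 5) to 22.6 ± 4.67 CPM in Commercial and from 52.9 ± 7.42 to 21.9 ± 2.53 CPM in Select. Its log2 fold changes were -1.17 (SE 0.14, adjusted p = 7.62e-06) and -1.27 (SE 0.14, adjusted p = 4.12e-06). The third constitutive beta gene, psmb2, codes for a subunit without protease activity in mammals. It ran at 54.7, 58.0, 49.8, 60.3 and 48.6 CPM in younger and 34.5, 23.0, 23.6, 43.5 and 33.6 CPM in older Commercial fish. Younger Select fish had 55.3, 64.5, 49.9, 49.4 and 43.1 CPM of psmb2 and older ones 27.1, 24.5, 20.1, 27.1 and 21.4 CPM. Commercial 65 dph replicate 4, at 43.5 CPM, was the older library nearest to the younger range, and the ages were again apart in both strains. The log2 fold change of psmb2 was -0.78 (SE 0.16, adjusted p = 0.00109) in Commercial and -1.12 (SE 0.16, adjusted p = 3.9e-05) in Select.

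Of the alpha ring genes, psma5 fell in both strains and psma4 in Select. The level of psma5 was 166, 174, 166, 188 and 189 CPM in Commercial at 20 dph and 99.0, 88.7, 89.8, 139 and 85.3 CPM at 65 dph. The Select values of psma5 were 172, 211, 166, 157 and 141 CPM and 97.7, 81.0, 99.0, 92.9 and 83.4 CPM. Replicate 4 of Commercial 65 dph, at 139 CPM, stood above the other 4 of its group, and still under the lowest younger Commercial library. The log2 fold changes of psma5 were -0.81 (SE 0.13, adjusted p = 0.000137) and -0.90 (SE 0.13, adjusted p = 5.08e-05). For psma4 the call was made in Select alone, -0.51 (SE 0.14, adjusted p = 0.00648), where levels went from 35.3 to 52.4 CPM to 27.2 to 31.3 CPM without overlap. In Commercial the log2 fold change of psma4 was -0.23 (SE 0.14, adjusted p = 0.218), with overlapping ranges of 28.8 to 44.1 and 28.0 to 43.6 CPM. The difference between the strains in this age effect was -0.28 (SE 0.19, adjusted p = 0.908). By library size the Select value of psma4 was -0.24 (adjusted p = 0.129) and with TPM -0.079 (adjusted p = 0.608), and the Commercial values were 0.035 and 0.16.

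Of the 8 genes in the 19S class, 7 fell in each strain with TMM scaling. The ATPase psmc6 stood at 62.2, 62.6, 62.3, 63.9 and 45.9 CPM in Commercial at 20 dph and at 30.3, 19.9, 28.8, 36.8 and 26.4 CPM at 65 dph. In Select, psmc6 stood at 62.6, 62.8, 55.1, 54.2 and 52.6 CPM and at 23.7, 25.1, 21.4, 19.6 and 19.3 CPM. No older library reached a younger one, although Commercial 20 dph replicate 5, at 45.9 CPM, was far below the other 4 of its group. The log2 fold change was -1.06 (SE 0.14, adjusted p = 1.58e-05) in Commercial and -1.40 (SE 0.14, adjusted p = 1.7e-06) in Select. The other ATPase, psmc3, fell by less, with -0.73 (SE 0.12, adjusted p = 0.000201) and -0.85 (SE 0.12, adjusted p = 4.46e-05). It went from 145 ± 14.3 to 87.2 ± 13.7 CPM in Commercial and from 138 ± 24.8 to 76.1 ± 4.36 CPM in Select.

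The scaffold subunit psmd1 had the most counts of any psm gene. It stood at 259, 283, 235, 316 and 194 CPM in younger Commercial fish and at 132, 83.1, 116, 181 and 116 CPM in older ones. The Select libraries had 261, 216, 236, 237 and 209 CPM and 136, 112, 100.5, 115 and 90.4 CPM of psmd1. The 2 ages were apart in both strains, with log2 fold changes of -1.04 (SE 0.17, adjusted p = 0.000177) and -1.07 (SE 0.17, adjusted p = 0.000124). The lid subunit psmd7 fell in both strains without overlap, with log2 fold changes of -0.69 (SE 0.11, adjusted p = 8.82e-05) and -0.94 (SE 0.11, adjusted p = 4.98e-06). Another lid gene, psmd8, spread more: older Commercial libraries ran from 21.2 to 57.9 CPM against 50.3 to 74.3 CPM in younger ones, so the ages overlapped there. In Select the older range of psmd8, 21.7 to 26.9 CPM, lay below the younger one of 36.8 to 80.5 CPM. Its log2 fold changes were -0.79 (SE 0.22, adjusted p = 0.011) and -1.37 (SE 0.23, adjusted p = 0.00015). In Commercial the call of psmd8 was lost by library size (-0.53, adjusted p = 0.0544) and with TPM (-0.46, adjusted p = 0.0726), and that of psmd7 with TPM (-0.28, adjusted p = 0.0501).

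The symbols psmd5, psmd9 and psmd10 belong to chaperones that help assemble the 19S base and leave it when it is complete. Of these, psmd10 fell with -0.87 (SE 0.13, adjusted p = 4.92e-05) in Commercial and -0.92 (SE 0.13, adjusted p = 2.82e-05) in Select, and psmd5 with -0.61 (SE 0.13, adjusted p = 0.00179) and -0.65 (SE 0.13, adjusted p = 0.000964). The calls of psmd5 were lost with TPM, at -0.18 (adjusted p = 0.345) and -0.19 (adjusted p = 0.293), and in Commercial also by library size, at -0.34 (adjusted p = 0.0807). The third, psmd9, was not called. Its libraries held 27.0, 27.8, 32.6, 30.7 and 29.7 CPM in Commercial at 20 dph and 27.1, 33.5, 25.8, 26.3 and 28.3 CPM at 65 dph. In Select they held 33.4, 35.7, 33.4, 31.9 and 31.2 CPM and 28.6, 25.2, 31.7, 26.1 and 30.4 CPM. The ranges overlapped in both strains, and the log2 fold changes were -0.068 (SE 0.091, adjusted p = 0.623) and -0.22 (SE 0.091, adjusted p = 0.0666). They were above 0 by library size, at 0.21 and 0.050, and with TPM, at 0.31 (adjusted p = 0.0269) and 0.21 (adjusted p = 0.117). The Select value passed the threshold without the 2 libraries that lay beside each other (-0.25, adjusted p = 0.0339), without Select 65 dph replicate 3 (-0.27, adjusted p = 0.0419) and with DESeq2 (-0.22, adjusted p = 0.0393). Over the alternatives that leave out 1 library, its adjusted p ran from 0.0419 to 0.153.

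**Figure D2:**
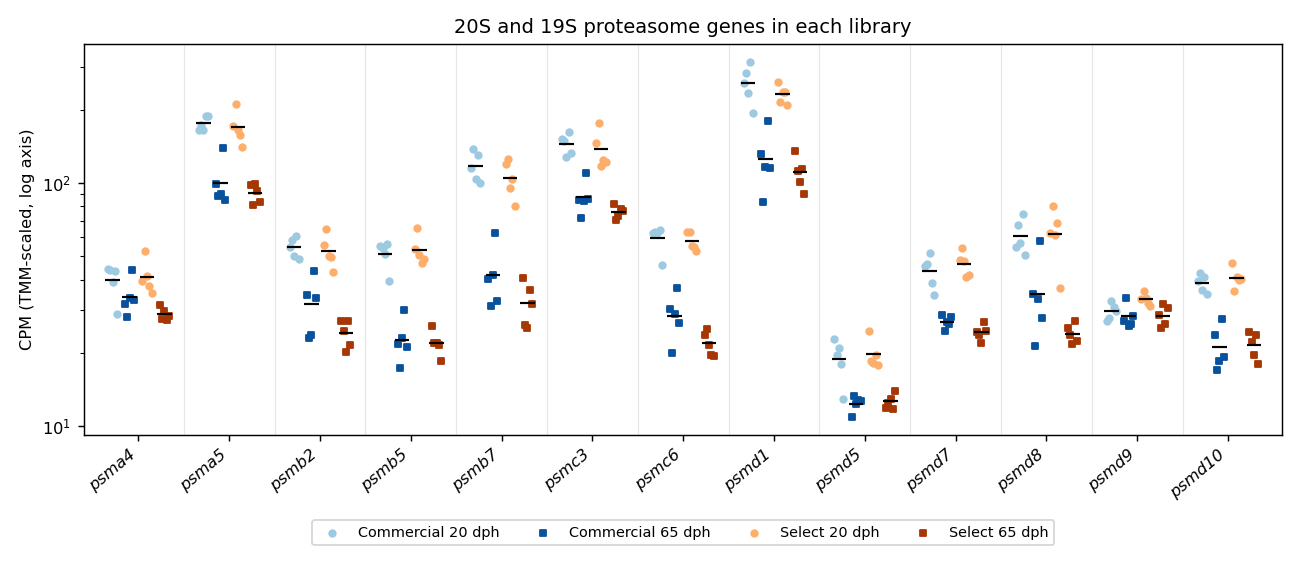
Level of each of the 13 genes of the 20S and 19S classes in each library (TMM-scaled CPM, log axis), with points for libraries, circles for 20 dph, squares for 65 dph and bars for group means. On this scale group means are lower at 65 dph than at 20 dph in both strains for all 13 genes, of which 12 were called in at least 1 strain, while other scalings put psmd9 and, in Commercial, psma4 above 0, and the groups of psmd9 overlap.

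With TMM scaling, most genes that build or cap the core were lower at 65 dph too, but with TPM none of psmg1, psmg3, psmg4, psme2, psme3 and psme3ip1 was called lower in either strain. Of the 4 chaperones of core assembly, psmg1, psmg3 and psmg4 were tested and called lower in both strains. The log2 fold changes of psmg3 were -0.75 (SE 0.18, adjusted p = 0.00325) and -0.77 (SE 0.18, adjusted p = 0.00247), from means of 7.13 ± 1.26 and 7.33 ± 1.24 CPM at 20 dph to 4.23 ± 0.611 and 4.31 ± 0.857 CPM at 65 dph. The partner of psmg3 in a dimer, psmg4, gave -0.47 (SE 0.16, adjusted p = 0.0334) and -0.45 (SE 0.16, adjusted p = 0.0403). For psmg1 the values were -0.47 (SE 0.17, adjusted p = 0.0404) and -0.72 (SE 0.17, adjusted p = 0.00278). With TPM the values of psmg1, psmg3 and psmg4 were -0.047, -0.35 and -0.078 in Commercial and -0.25, -0.32 and -0.0060 in Select, and by library size psmg4 was not called in either strain. The partner of psmg1, psmg2, had no counts in 18 libraries and 25 counts in all in Select 65 dph replicates 1 and 3, at 1.196 and 0.748 CPM. The Commercial call of psmg1 was lost without any 1 of Commercial 20 dph replicates 1 to 4 and Commercial 65 dph replicates 2, 3 and 5, at -0.51 to -0.38, and with RLE scaling, at -0.45 (adjusted p = 0.0508). The Commercial call of psmg4 was lost without Commercial 20 dph replicate 2 or 3 or Commercial 65 dph replicate 1, 4 or 5, at -0.48 to -0.39. Its Select call was lost when Select 20 dph replicate 1 or 2, or any of Select 65 dph replicates 1 to 4, was left out, at -0.47 to -0.35. The replicate numbers of the labels as a block also ended both calls of psmg4, at -0.47 (adjusted p = 0.0532) and -0.43 (adjusted p = 0.0664).

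The activator psme3, a cap of nuclear proteasomes, fell in both strains. It ran at 26.2, 35.7, 23.4, 25.5 and 12.1 CPM in Commercial at 20 dph and at 18.6, 11.4, 15.3, 18.8 and 12.2 CPM at 65 dph. In Select, psme3 ran at 31.2, 28.1, 25.9, 21.4 and 20.2 CPM and at 15.5, 16.3, 11.2, 13.5 and 9.13 CPM. The ages overlapped in Commercial, -0.69 (SE 0.23, adjusted p = 0.0326), and did not in Select, -0.95 (SE 0.23, adjusted p = 0.00416). The Commercial call was lost without Commercial 20 dph replicate 1, 2 or 4 or Commercial 65 dph replicate 2, 3 or 5, at -0.69 to -0.52. The symbol psme3ip1 names a protein that binds psme3 and is not itself an activator, and it fell by less, -0.38 (SE 0.11, adjusted p = 0.0131) and -0.47 (SE 0.11, adjusted p = 0.0025). With TPM the values were -0.24 and -0.51 for psme3 and 0.023 and -0.014 for psme3ip1, and by library size psme3ip1 was not called in either strain and psme3 in Select alone. The interferon-inducible activator psme2 stood at 107 ± 7.48 CPM at 20 dph and 102 ± 13.01 CPM at 65 dph in Commercial, -0.074 (SE 0.12, adjusted p = 0.704). In Select, psme2 went from 134 ± 26.4 to 99.3 ± 11.02 CPM, -0.43 (SE 0.12, adjusted p = 0.0111), a call that was lost by library size (-0.16, adjusted p = 0.251) and with TPM (0.020, adjusted p = 0.886), where its level was 156 ± 20.3 and 158 ± 12.04 TPM. In Commercial its value was 0.19 by library size (adjusted p = 0.163) and 0.30 with TPM (adjusted p = 0.0244). The inhibitor psmf1 had log2 fold changes of 0.22 (SE 0.13, adjusted p = 0.243) and 0.25 (SE 0.13, adjusted p = 0.165) and was not called. By library size it was called higher in both strains, at 0.49 (adjusted p = 0.0119) and 0.52 (adjusted p = 0.00732), and likewise with TPM.

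Of the 3 inducible beta genes, 2 rose in both strains while the constitutive beta genes fell, under all 3 scalings. The gene psmb9a, whose mammalian counterpart takes the place of a catalytic beta subunit in immune tissue, stood at 11.99, 10.7, 13.6, 12.7 and 8.86 CPM in Commercial at 20 dph and at 20.9, 22.9, 20.5, 26.7 and 19.7 CPM at 65 dph. In Select it stood at 12.6, 28.1, 22.2, 22.2 and 16.6 CPM and at 32.5, 25.1, 48.4, 27.6 and 21.0 CPM. The ages were apart in Commercial, 0.93 (SE 0.22, adjusted p = 0.0034), and overlapped in Select, 0.60 (SE 0.22, adjusted p = 0.0364). The highest library, Select 65 dph replicate 3 at 48.4 CPM, was 1 of 6 without which the Select call was lost. Without it the log2 fold change was 0.38 (adjusted p = 0.159), and without Select 20 dph replicate 1, 3, 4 or 5 or Select 65 dph replicate 1 it was 0.47 to 0.64, over a range of adjusted p of 0.0165 to 0.159 when each library was left out in turn. With no filter on low counts its adjusted p was 0.0682, and with only the Select libraries in the fit 0.0867.

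The genes psmb12 and psmb13a are known from zebrafish, where they lie with psmb9a in the region of the class I antigen presentation genes. The level of psmb12 was 13.9, 9.04, 14.5, 13.1 and 12.6 CPM at 20 dph and 30.1, 18.2, 24.9, 36.4 and 29.1 CPM at 65 dph in Commercial. The Select levels of psmb12 were 10.2, 22.1, 14.9, 14.4 and 12.2 CPM and 32.1, 17.2, 32.7, 23.7 and 19.4 CPM. The ages were apart in Commercial, 1.14 (SE 0.23, adjusted p = 0.00101), and overlapped in Select, 0.77 (SE 0.23, adjusted p = 0.0137). The third inducible gene, psmb13a, was not called with TMM, and was called higher with TPM in both strains, at 0.47 (adjusted p = 0.0164) and 0.63 (adjusted p = 0.00207). Its log2 fold changes were 0.094 (SE 0.17, adjusted p = 0.737) and 0.22 (SE 0.17, adjusted p = 0.371), with 58.7 ± 5.67 and 56.0 ± 12.2 CPM at 20 dph and 62.7 ± 10.3 and 65.0 ± 17.7 CPM at 65 dph.

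Per length, the summed TPM, a level scaled to transcript length as well as depth, of the 3 inducible genes over that of the 3 constitutive beta genes was 0.312 ± 0.0453 (SD, n = 5) in Commercial at 20 dph and 0.985 ± 0.103 at 65 dph. In Select the ratio was 0.362 ± 0.0700 and 1.31 ± 0.452, the last with Select 65 dph replicate 3 at 2.10 and the other 4 libraries from 1.03 to 1.28. The constitutive sum holds only psmb2, psmb5 and psmb7. It includes psmb2, so the ratio is not one of catalytic subunits alone, nor one of whole proteasomes. Much of the inducible sum was psmb13a, which was not called with TMM. In Commercial it had 70.1 of 102.2 TPM at 20 dph and 97.6 of 184.3 TPM at 65 dph. In Select it had 67.1 of 112.8 TPM and 105.2 of 204.3 TPM. These ratios are a description of both groups of genes and were not tested. Markers of immune cells and of interferon rose alongside. Of 11 interferon-stimulated genes in the files, 8 of 10 tested rose in each strain, and their summed level was 197 to 240.2 CPM in Commercial and 207 to 290.5 CPM in Select at 20 dph. At 65 dph it was 361 to 466 CPM in Commercial and 352 to 801 CPM in Select, the highest in Select 65 dph replicate 3. Of 8 T cell markers, 5 of 7 tested rose in each strain, from summed levels of 11.6 to 16.4 and 14.5 to 26.3 CPM to 55.1 to 76.4 and 49.4 to 84.2 CPM, and none was at 0 in all libraries. Their part in the levels of the inducible genes was not tested.

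**Figure D3:**
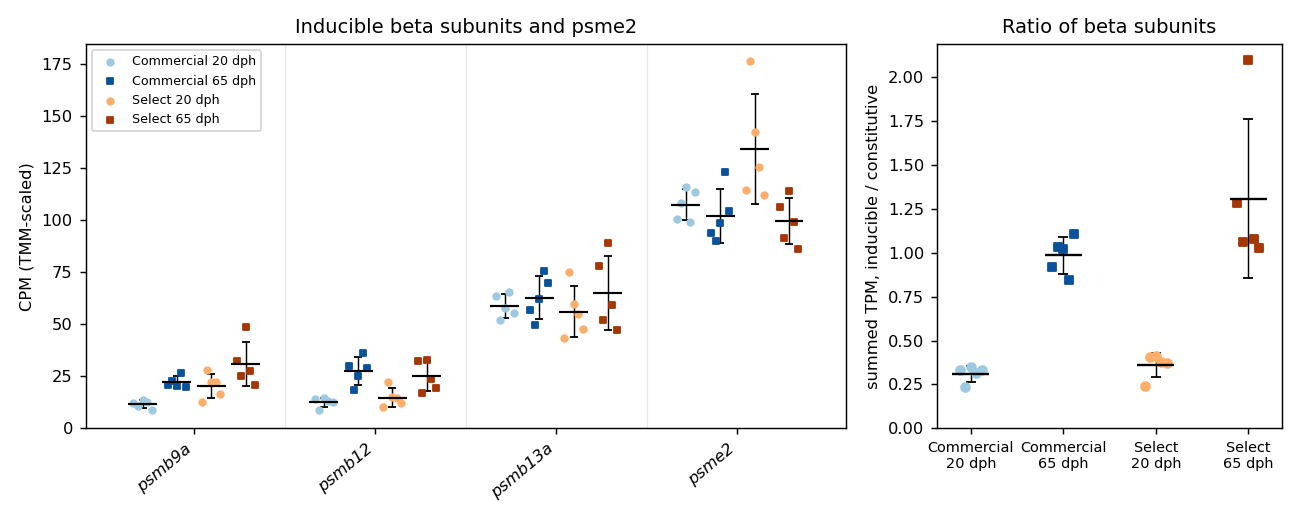
Left, CPM of the 3 inducible beta genes and psme2 in each library, with group mean and SD (n = 5). Right, summed TPM of the 3 inducible genes over that of psmb2, psmb5 and psmb7. The ratio of the older libraries lies between 0.846 and 2.10, above that of all younger libraries at 0.234 to 0.412.

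Outside the proteasome the classes held members in both directions. Of 16 conjugating enzymes, 3 fell and 1 rose in Commercial, and 6 fell and 1 rose in Select. The share called was 25.0% and 43.8%, beside 30.1% and 34.3% of all features. With TPM 2 were lower and 2 higher in Commercial, beside 7.22% and 32.4% of all features. In Select 2 were lower and 3 higher, beside 7.93% and 38.0%. The largest falls were in ube2c and ube2s, the pair of E2 enzymes that serve the anaphase-promoting complex, the ligase that ends mitosis. The level of ube2c was 5.91, 5.21, 2.29, 6.82 and 7.43 CPM in Commercial at 20 dph and 1.46, 1.65, 1.06, 2.25 and 1.48 CPM at 65 dph. In Select it was 4.01, 5.39, 5.01, 5.12 and 5.04 CPM and 0.940, 1.62, 1.56, 2.38 and 0.703 CPM. The ages were apart in both strains, with Commercial 20 dph replicate 3 at 2.29 CPM just above the highest older Commercial library at 2.25 CPM, and the log2 fold changes were -1.80 (SE 0.32, adjusted p = 0.000371) and -1.76 (SE 0.32, adjusted p = 0.000402). For ube2s the means went from 14.7 ± 1.59 to 7.01 ± 0.809 CPM in Commercial and from 13.5 ± 1.72 to 7.28 ± 1.08 CPM in Select, -1.07 (SE 0.13, adjusted p = 6.97e-06) and -0.88 (SE 0.13, adjusted p = 4.1e-05). The 4 proliferation markers in the files (aurka, kif20a, mcm5, top2a) all fell in both strains, from summed levels of 192 to 272 CPM at 20 dph to 47.3 to 92.8 CPM at 65 dph. Their part in the levels of ube2c and ube2s was not tested.

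A further E2, ube2na, whose mammalian counterpart builds ubiquitin chains used in signalling, had 26.2 ± 1.75 CPM at 20 dph and 16.9 ± 2.84 CPM at 65 dph in Commercial. Its Select means were 26.4 ± 1.67 and 16.1 ± 3.34 CPM, and the log2 fold changes were -0.63 (SE 0.13, adjusted p = 0.00141) and -0.71 (SE 0.13, adjusted p = 0.00051). With TPM these were -0.25 (adjusted p = 0.175) and -0.28 (adjusted p = 0.117). Its close relative ube2n was called in Select, -0.58 (SE 0.15, adjusted p = 0.00622), and not in Commercial, -0.41 (SE 0.15, adjusted p = 0.0502). The E2 enzymes of the ubiquitin-like tag SUMO, ube2ia and ube2ib, were called in Select alone, -0.61 (SE 0.15, adjusted p = 0.00401) and -0.58 (SE 0.20, adjusted p = 0.0322). In Commercial their log2 fold changes were -0.17 (SE 0.15) and -0.29 (SE 0.20). A subunit of the SUMO-activating enzyme, uba2, had -0.62 (SE 0.18, adjusted p = 0.0112) in Select and -0.45 (SE 0.18, adjusted p = 0.0657) in Commercial. Without Commercial 20 dph replicate 5 the Commercial value of uba2 was -0.60 (adjusted p = 0.00371) and without Commercial 65 dph replicate 4 it was -0.54 (adjusted p = 0.0429), in a range of 0.00371 to 0.158 when each library was left out. The differences between the strains in these age effects were -0.44 (SE 0.21, adjusted p = 0.887) for ube2ia and -0.17 (SE 0.25, adjusted p = 0.961) for uba2. By library size and with TPM none of ube2n, ube2ia, ube2ib and uba2 was called in either strain. The members ube2n and ube2ib were named after their values were seen.

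The E2 that rose was ube2e3. It stood at 2.86, 4.98, 3.27, 3.29 and 4.79 CPM in Commercial at 20 dph and at 5.53, 11.9, 5.43, 4.37 and 5.23 CPM at 65 dph. In Select it stood at 4.44, 5.14, 3.92, 4.02 and 3.56 CPM and at 7.77, 8.20, 6.39, 6.44 and 14.5 CPM. Commercial 65 dph replicate 2 and Select 65 dph replicate 5 were far above the rest of their groups. The smooth muscle markers were high in both, and also in Select 65 dph replicate 2, where ube2e3 stood at 8.20 CPM. The log2 fold changes were 0.76 (SE 0.28, adjusted p = 0.0485) and 1.03 (SE 0.28, adjusted p = 0.0078). The Commercial call was lost without Commercial 65 dph replicate 2 (0.41, adjusted p = 0.219), and also without Commercial 20 dph replicate 1, 3 or 4 or Commercial 65 dph replicate 1 or 3, at 0.66 to 0.81. Without Commercial 65 dph replicate 2 and Select 65 dph replicate 5 the Commercial log2 fold change was 0.45 (adjusted p = 0.0827). The adjusted p ran from 0.0318 to 0.219 when each library was left out in turn. In Select, where the ages were apart, the log2 fold change without Select 65 dph replicate 5 was 0.77 and remained called. The part of muscle in these levels was not tested.

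Of 22 tested F-box genes, 2 rose and 2 fell in Commercial, and 3 rose and 3 fell in Select. The share called was 18.2% and 27.3%, beside 30.1% and 34.3% of all features. These counts turned on the scaling. By library size 7 were higher and 1 lower in Commercial, beside 25.5% and 9.10% of all features. In Select 9 were higher and 1 lower, beside 27.7% and 11.3%. With TPM 10 and 13 were higher in Commercial and Select, beside 32.4% and 38.0% of all features. None was lower with TPM, beside 7.22% and 7.93% of all features. The level of fbxo9, an adaptor linked to growth signalling in mammals, was 46.1, 45.8, 46.6, 46.7 and 50.1 CPM in Commercial at 20 dph and 35.4, 28.0, 34.6, 31.9 and 37.3 CPM at 65 dph. In Select it was 46.0, 53.0, 44.5, 39.4 and 44.5 CPM and 30.5, 28.7, 29.5, 29.3 and 29.2 CPM. The ages were apart in both strains, -0.49 (SE 0.086, adjusted p = 0.000292) and -0.63 (SE 0.086, adjusted p = 2.87e-05), and with TPM the values were -0.10 (adjusted p = 0.288) and -0.18 (adjusted p = 0.0561). The other F-box gene lower in both strains, though by neither other scaling, was fbxl6, named after its values were seen, with -0.45 (SE 0.12, adjusted p = 0.00828) and -0.45 (SE 0.12, adjusted p = 0.0067). One F-box gene rose in both strains, fbxl3a, whose mammalian counterpart targets cryptochromes of the circadian clock. Its log2 fold changes were 0.85 (SE 0.29, adjusted p = 0.0335) and 0.91 (SE 0.29, adjusted p = 0.0208), with means of 3.57 ± 1.75 and 3.85 ± 1.08 CPM at 20 dph and 6.44 ± 1.09 and 7.25 ± 2.14 CPM at 65 dph. The Commercial call of fbxl3a was lost when any of Commercial 20 dph replicates 2, 3 and 5 and Commercial 65 dph replicates 2 to 5 was left out, at 0.70 to 0.85. Its Select call was lost when any of Select 20 dph replicates 2 and 5 and Select 65 dph replicates 3 and 4 was dropped, at 0.78 to 0.85.

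The largest fold change of any called member was that of fbxo32, a muscle F-box gene known in mammals for its rise during muscle wasting. It stood at 1.70, 1.27, 0.982, 3.41 and 8.51 CPM in Commercial at 20 dph and at 3.69, 20.6, 5.43, 2.62 and 8.52 CPM at 65 dph. In Select it stood at 1.29, 2.13, 1.31, 1.58 and 1.35 CPM and at 4.53, 5.26, 9.32, 6.44 and 16.8 CPM. The ages overlapped in Commercial and were apart in Select, with log2 fold changes of 1.37 (SE 0.59, adjusted p = 0.0915) and 2.45 (SE 0.63, adjusted p = 0.00538). Both other scalings called it higher in Commercial too. The difference between these age effects was 1.08 (SE 0.84, adjusted p = 0.922). The highest values, 20.6 and 16.8 CPM, were in Commercial 65 dph replicate 2 and Select 65 dph replicate 5. In Select 65 dph replicate 2, the other library with high smooth muscle markers, fbxo32 stood at 5.26 CPM. Among the 4 skeletal muscle markers in the files none was called higher with age by TMM (1 in Commercial by each other scaling), 2 of 3 tested fell in Select, and 1 had no counts in any library. Their summed level was 423 CPM in Select 20 dph replicate 1 and 20.04 to 43.5 CPM elsewhere. Of the 3 smooth muscle markers 2 rose in Select and 0 in Commercial with TMM, and 3 and 2 by each other scaling. Their part in the level of fbxo32 was not tested. Without Select 65 dph replicate 5 the log2 fold change in Select was 2.05.

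With TMM, the 3 other F-box calls made in 1 strain alone were smaller, and that of fbxw8 was made by neither other scaling. The log2 fold changes were -0.47 (SE 0.16, adjusted p = 0.0257) for fbxw8, a partner of a cullin ligase, and 0.57 (SE 0.21, adjusted p = 0.047) for fbxo30a, both in Select, and 0.25 (SE 0.092, adjusted p = 0.0442) for fbxo42 in Commercial. The call of fbxo30a was lost when any of Select 20 dph replicates 1, 2, 3 and 5 and Select 65 dph replicates 3 to 5 was left out, at 0.42 to 0.62. That of fbxo42 was lost without any of Commercial 20 dph replicates 2 to 5 and Commercial 65 dph replicates 1, 3, 4 and 5, at 0.22 to 0.27. It was also lost with the replicate number as a block, at 0.25 (adjusted p = 0.0706). Both other scalings called fbxo42 higher in both strains. With TPM fbxw8 was called higher in Commercial, opposite to its fall in Select with TMM. The F-box gene fbxo2, a binder of sugar-tagged proteins in mammals, had the highest mean level per length of its class at 65 dph, with 41.3 ± 17.0 TPM in Commercial and 46.4 ± 12.1 TPM in Select. At 20 dph it had 22.4 ± 7.51 and 33.0 ± 3.57 TPM, and the mean of fbxo9 was higher, at 35.3 ± 1.79 and 34.3 ± 1.89 TPM. The log2 fold changes of fbxo2 were 0.49 (SE 0.25, adjusted p = 0.16) in Commercial and 0.031 (SE 0.25, adjusted p = 0.941) in Select. It was not called with TMM, and was called higher in Commercial by both other scalings.

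Among the remaining ligases, ubr7, a protein with the UBR box that defines N-end recognition ligases, fell in both strains. It ran from 10.4 to 20.4 CPM at 20 dph to 7.50 to 13.6 CPM at 65 dph in Commercial, with overlap, and from 14.0 to 24.1 to 7.59 to 9.46 CPM in Select, without. The log2 fold changes of ubr7 were -0.77 (SE 0.20, adjusted p = 0.00625) and -1.06 (SE 0.20, adjusted p = 0.000452), and the Commercial call was lost with TPM (-0.33, adjusted p = 0.135). Its relative ubr3 rose in Select, 0.43 (SE 0.15, adjusted p = 0.0295), and had 0.17 (SE 0.15, adjusted p = 0.428) in Commercial, where both other scalings called it higher. The Select call of ubr3 was lost when Select 20 dph replicate 2 or 3, or any of Select 65 dph replicates 3 to 5, was left out, at 0.36 to 0.41. The only HECT ligase among the members, ube3c, had -0.25 (SE 0.15, adjusted p = 0.228) and 0.007 (SE 0.15, adjusted p = 0.979), and with TPM 0.12 and 0.32 (adjusted p = 0.0499).

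The deubiquitinases were divided between 1 gene with a large fall under all 3 scalings and many that were not called with TMM. The fall was in uchl3, which in mammals releases ubiquitin and the related tag NEDD8 from short remnants. It stood at 52.0, 56.7, 50.1, 44.8 and 43.2 CPM in Commercial at 20 dph and at 28.9, 15.7, 19.2, 29.7 and 21.9 CPM at 65 dph. In Select it stood at 45.1, 49.4, 38.6, 41.8 and 42.8 CPM and at 18.9, 19.1, 17.0, 18.4 and 13.7 CPM. The ages were far apart in both strains, -1.10 (SE 0.15, adjusted p = 3.19e-05) and -1.32 (SE 0.15, adjusted p = 6.21e-06). The other gene of its family, uchl5, a deubiquitinase that docks on the 19S particle, had means of 31.9 ± 1.82 and 29.6 ± 2.23 CPM in Commercial and 27.4 ± 3.51 and 26.0 ± 4.21 CPM in Select. Its log2 fold changes were -0.11 (SE 0.11, adjusted p = 0.502) and -0.081 (SE 0.11, adjusted p = 0.609), which changed sign by library size, to 0.17 and 0.20, and with TPM, to 0.31 and 0.36 (adjusted p = 0.038).

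None of 10 USP genes was called by edgeR with TMM in either strain. By each of the other scalings 4 were called higher in Commercial (usp1, usp12a, usp19, usp49) and 5 in Select (usp1, usp11, usp19, usp45, usp49), and none lower. Of all features 25.5% by library size and 32.4% with TPM were higher in Commercial, and 27.7% and 38.0% in Select. With TMM, 2 USP genes in Commercial had an unadjusted p under 0.05, where 40.1% of all features did. In Select 4 did, where 43.6% of all features did. The one with the highest level per length, usp4, had a mean of 20.7 TPM and log2 fold changes of -0.19 (SE 0.13, adjusted p = 0.308) and -0.19 (SE 0.13, adjusted p = 0.285), both above 0 by the other scalings. The nearest to a call in Commercial was usp12a, 0.61 (SE 0.24, adjusted p = 0.0612), which passed the threshold without Commercial 20 dph replicate 3 (0.73, adjusted p = 0.0384), in a range of 0.0384 to 0.14 when each library was left out. It also passed with limma-voom (0.61, adjusted p = 0.0499) and with only the Commercial libraries in the fit (0.62, adjusted p = 0.0186). In Select, usp48 had -0.36 (SE 0.15, adjusted p = 0.065), above 0 with TPM (0.072), and passed without Select 65 dph replicate 4 (-0.42, adjusted p = 0.0499), in a range of 0.0499 to 0.158. The membrane-anchored usp19 had 0.33 (SE 0.14, adjusted p = 0.076) in Select and passed without Select 20 dph replicate 5 (0.41, adjusted p = 0.0324), in a range of 0.0324 to 0.193. None of 3 OTU genes was called by edgeR with TMM, while both other scalings called otud5a higher in both strains, and 1 in each strain had an unadjusted p under 0.05. The values of otulina, a copy of the gene for the linear-chain deubiquitinase of mammals, were -0.58 (SE 0.27, adjusted p = 0.117) and -0.46 (SE 0.27, adjusted p = 0.205). Those of otud5a were 0.23 (SE 0.14, adjusted p = 0.254) and 0.33 (SE 0.14, adjusted p = 0.0785). Without Commercial 20 dph replicate 5, which stood high for otud5a at 22.6 CPM, both passed in Commercial, otud5a at 0.40 (adjusted p = 0.0076) and otulina at -0.73 (adjusted p = 0.0476). Over single libraries left out, the adjusted p in Commercial ran from 0.0076 to 0.484 for otud5a and from 0.0476 to 0.27 for otulina. With only the Select libraries in the fit, otud5a passed in Select at 0.34 (adjusted p = 0.0354).

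UBX proteins bring substrates to the unfoldase p97, which acts upstream of the proteasome. Of 5 tested, 2 fell and 1 rose in each strain. The share called was 60% in each, beside 30.1% and 34.3% of all features in Commercial and Select. The riser was ubxn2a, at 1.61, 0.695, 1.85, 1.18 and 2.04 CPM in Commercial at 20 dph and 5.05, 4.84, 2.77, 3.74 and 4.32 CPM at 65 dph. Its Select values were 1.00, 2.00, 1.96, 0.853 and 0.860 CPM and 3.84, 4.15, 2.99, 3.82 and 6.79 CPM. These low levels did not overlap between ages in either strain, 1.48 (SE 0.33, adjusted p = 0.00223) and 1.68 (SE 0.33, adjusted p = 0.00079). The fallers were ubxn1, -0.55 (SE 0.12, adjusted p = 0.00225) and -0.64 (SE 0.12, adjusted p = 0.000611), and ubxn8, -0.49 (SE 0.16, adjusted p = 0.028) and -0.89 (SE 0.16, adjusted p = 0.000385). In Commercial neither was called by the other scalings, and in Select ubxn1 was not called with TPM. For ubxn4, Commercial 20 dph replicate 2 and Commercial 65 dph replicate 3 had no counts while the other 18 libraries had 5.30 to 26.4 CPM, and the log2 fold changes were -0.37 (SE 0.76, adjusted p = 0.763) and -1.22 (SE 0.76, adjusted p = 0.231). The ages of ubxn4 did not overlap in Select. The gene ubxn4 was named after its values were seen.

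**Figure D4:**
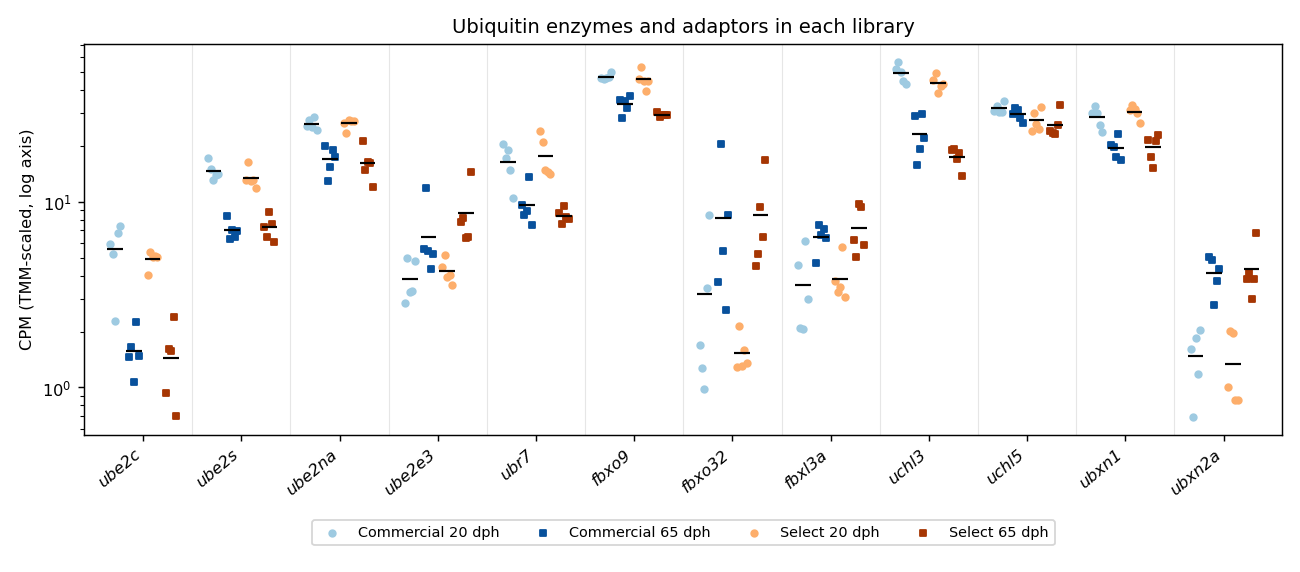
Level of 12 ubiquitin enzymes and adaptors in each library (TMM-scaled CPM, log axis), with circles for 20 dph, squares for 65 dph and bars for group means. On this scale, within each strain the older libraries lie under the younger ones for ube2c, ube2s, ube2na, fbxo9, uchl3 and ubxn1, above them for ubxn2a, and overlap them for uchl5.

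Groups that did not overlap between the ages in TMM-scaled CPM were counted as well. In Commercial 21 of 85 tested members had non-overlapping ages, 13 of them psm genes, where 21.1% of all features did. In Select 32 members had, 16 of them psm genes, where 25.2% of all features did. With TMM the direction of the fold change was the same in both strains for all 23 psm genes and for 46 of the 62 others. It differed for psma4 and psme2 by library size and for psma4 and psme3ip1 with TPM. The share of all features with the same direction was not counted, so the agreement cannot be called particular to psm genes.

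Genes of the pathway outside the symbol rule were taken from a list of which 44 were in the files and 42 were tested. Those given by value were picked after their values were seen. In Commercial 7 of the 42 rose and 11 fell, with a median log2 fold change of -0.17. In Select 7 rose and 17 fell, with a median of -0.31. Among all features 14.5% rose and 15.6% fell in Commercial, and 16.4% and 17.9% in Select. By library size 10 listed genes were higher and 6 lower in Commercial, beside 25.5% and 9.10% of all features. In Select 10 and 9 were, beside 27.7% and 11.3%. With TPM 12 were higher and 6 lower in Commercial, beside 32.4% and 7.22%, and 16 and 5 in Select, beside 38.0% and 7.93%. The medians with TPM were 0.17 and 0.14. The ubiquitin receptor of the 19S particle, adrm1, fell with log2 fold changes of -0.93 (SE 0.17, adjusted p = 0.000571) and -0.73 (SE 0.17, adjusted p = 0.00332), the second not called with TPM (-0.30, adjusted p = 0.129), and the small lid subunit sem1 with -0.78 (SE 0.17, adjusted p = 0.00233) and -1.29 (SE 0.18, adjusted p = 2.82e-05). Of 8 tested genes of the anaphase-promoting complex, which ube2c and ube2s serve, and its activators, 5 fell in Commercial and 6 in Select. Those not called were anapc7 and fzr1b and, in Commercial, anapc15. Under all 3 scalings 3 fell in both strains: anapc4 had -1.14 (SE 0.14, adjusted p = 7.47e-06) and -1.15 (SE 0.14, adjusted p = 7.39e-06), anapc5 -1.33 (SE 0.24, adjusted p = 0.000436) and -1.14 (SE 0.24, adjusted p = 0.00137), and its activator cdc20 -2.11 (SE 0.22, adjusted p = 1.74e-06) and -1.80 (SE 0.22, adjusted p = 8.07e-06). The ubiquitin-like tag sumo2 had -0.87 (SE 0.19, adjusted p = 0.00213) and -1.03 (SE 0.19, adjusted p = 0.000479). Among those that rose was nfe2l1b, whose mammalian counterpart is a transcription factor that drives proteasome genes, with 0.54 (SE 0.10, adjusted p = 0.000431) and 0.52 (SE 0.10, adjusted p = 0.000514). The ligase genes cbl and itcha rose as well, with log2 fold changes of 1.44 (SE 0.23) and 1.42 (SE 0.23) and of 0.79 (SE 0.19) and 0.94 (SE 0.19). The ubiquitin gene ubb was not called, at -0.77 (SE 0.69, adjusted p = 0.442) and -1.43 (SE 0.70, adjusted p = 0.128).

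Between the strains no member was called at 20 dph, where 51 of 32166 features (0.159%) were, 0.106% higher and 0.0529% lower in Select. At an unadjusted p under 0.05 there were 7 members, against 10.3% of all features. No member had groups that did not overlap, against 2.19% of all features. The median log2 fold change, Select against Commercial, was 0.024 over the members and 0.040 over the psm genes, beside -0.0050 over all features. DESeq2 called 1 member, psmb9a, and limma-voom none. The level of psmb9a was 8.86 to 13.6 CPM in Commercial and 12.6 to 28.1 CPM in Select, with a log2 fold change of 0.81 (SE 0.22, unadjusted p = 0.00156, adjusted p = 0.158). The adjusted p of this value was 0.0424 with DESeq2 and 0.0847 to 0.291 when each library was left out. Of 7 tested T cell markers 1 was called higher in Select at this age, with summed levels of 11.6 to 16.4 CPM in Commercial and 14.5 to 26.3 CPM in Select, and the macrophage marker mpeg1.1 ran at 14.0 to 25.9 and 19.9 to 33.9 CPM and was not called. Their part in the level of psmb9a was not tested. The 4 lowest p in each direction were those of psmb9a, psme2, 0.32 (SE 0.12, unadjusted p = 0.0182, adjusted p = 0.349), fbxo45, 1.19 (SE 0.42, unadjusted p = 0.0107, adjusted p = 0.297), and ube2d4, 0.31 (SE 0.11, unadjusted p = 0.0134, adjusted p = 0.317), on the higher side. On the lower side were fbxl17, -0.33 (SE 0.16), uchl5, -0.21 (SE 0.11), fbxo32, -1.04 (SE 0.62), and ube3c, -0.23 (SE 0.15). The value of fbxo32 was -0.26 without Commercial 20 dph replicate 5, which held 8.51 CPM against 0.982 to 3.41 CPM in the other 4. The sum over the 13 genes of the 20S and 19S classes was 1092 ± 111 CPM (SD, n = 5) in Commercial and 1050.0 ± 115 CPM in Select.

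At 65 dph again no member was called between strains, where 0% of all features were called. With an unadjusted p under 0.05 there were 7 members, against 6.22% of all features, and both DESeq2 and limma-voom called none. One member had groups that did not overlap, psme3ip1, with 19.68 to 22.16 CPM in Commercial and 16.58 to 19.67 CPM in Select, where 0.998% of all features did. The lowest p on the lower side included 2 proteasome genes: psmc6 stood at 28.4 ± 6.13 CPM in Commercial and 21.8 ± 2.53 CPM in Select, -0.38 (SE 0.14, unadjusted p = 0.0123, adjusted p = 0.683), and psmb2 at 31.6 ± 8.54 and 24.04 ± 3.19 CPM, -0.40 (SE 0.16, unadjusted p = 0.0222, adjusted p = 0.736). Without Commercial 65 dph replicate 4, whose core genes were high, the values were -0.27 for psmc6 and -0.26 for psmb2, and without replicate 2, whose core genes were low, -0.48 and -0.49. The deubiquitinase uchl3 had -0.41 (SE 0.15, unadjusted p = 0.0153, adjusted p = 0.711) and the F-box gene fbxw8 -0.41 (SE 0.16, unadjusted p = 0.0166, adjusted p = 0.711). On the higher side, psmb9a had 0.49 (SE 0.21, unadjusted p = 0.0358, adjusted p = 0.77), and 0.26 without Select 65 dph replicate 3. The others there were fbxl4, 0.41 (SE 0.20), otud3, 0.32 (SE 0.18), and fbxo18, 0.19 (SE 0.11). The sum over the 13 genes was 595 ± 121 CPM in Commercial and 517 ± 39.3 CPM in Select.

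**Figure D5:**
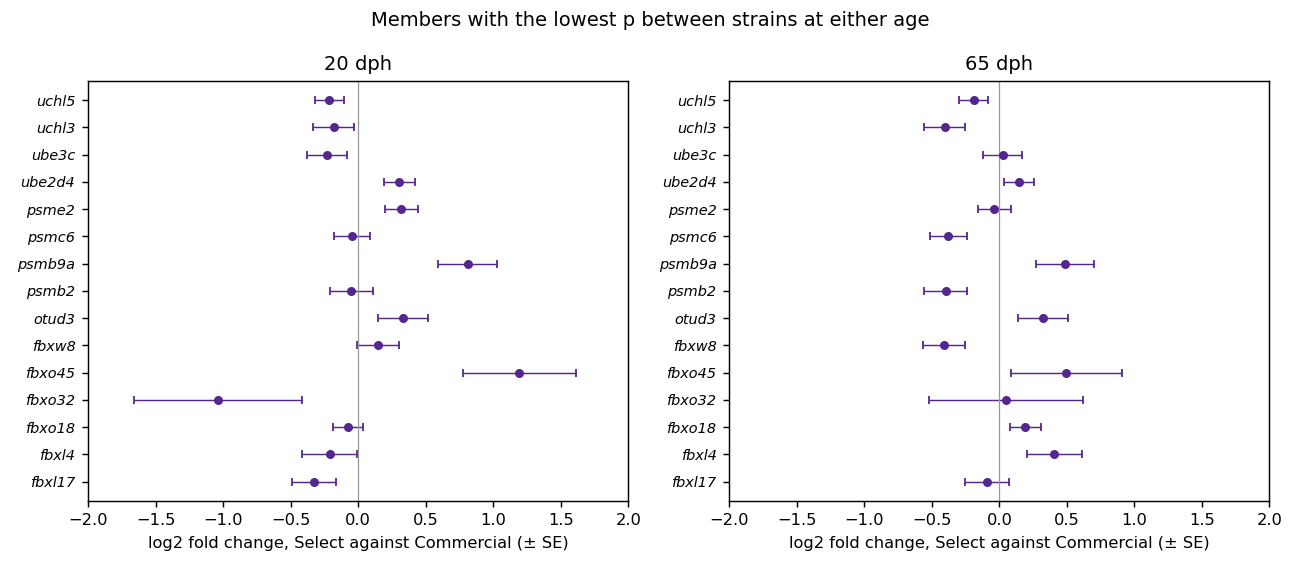
Log2 fold change of Select against Commercial with bars of 1 standard error at 20 dph (left) and 65 dph (right), for the members with the lowest p in either direction at either age. None was called after adjustment by edgeR, and psmb9a lies at 0.81 and 0.49.

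The age effects of the strains were also compared directly, as the change in Select minus the change in Commercial. No member was called, where 0% of all features were, and 3 had an unadjusted p under 0.05, against 5.54% of all features, with DESeq2 and limma-voom calling none. Of the psm genes 20 of 23 had a negative value (17 with TPM), with a median of -0.15, beside -0.020 for the other members and -0.0060 for all features. Among all 32166 features tested 16286 were negative. Single libraries, such as Commercial 65 dph replicate 4, were highest in their group for 10 of 13 core genes, so the psm signs are not independent. The F-box genes fbxw8, -0.56 (SE 0.22, unadjusted p = 0.0207, adjusted p = 0.881), and fbxo42, -0.31 (SE 0.13, unadjusted p = 0.0294, adjusted p = 0.881), had the lowest p on the negative side, followed by ube2ia, -0.44 (SE 0.21), and psme2, -0.36 (SE 0.17). On the positive side were fbxl4, 0.62 (SE 0.29, unadjusted p = 0.0444, adjusted p = 0.887), fbxo3, 0.44 (SE 0.26), fbxo18, 0.27 (SE 0.16), and fbxl2, 1.39 (SE 0.91). The last moved from 1.39 to 2.33 without Commercial 65 dph replicate 2, which held 2.53 CPM against 0.107 to 0.624 CPM in the others. For psmb7, psmb5 and psmb2 the differences were -0.22 (SE 0.26), -0.10 (SE 0.20) and -0.35 (SE 0.22), and for psmb9a and psmb12 -0.33 (SE 0.31) and -0.37 (SE 0.32).

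Compared per length, the order of the members differed between the ages. At 20 dph the highest mean was that of psma5, with 192 ± 9.20 TPM in Commercial and 186 ± 11.9 TPM in Select, above psmb7 with 169 ± 26.2 and 152 ± 16.4 TPM and psme2 with 127 ± 11.8 and 156 ± 20.3 TPM. The SD of psma5 overlapped that of psmb7 in Commercial and that of psme2 in Select. At 65 dph the mean of psme2 was highest, with 157 ± 16.2 and 158 ± 12.04 TPM, before psma5 with 144 ± 29.2 and 135 ± 7.58 TPM, and the SDs of this pair overlapped in Commercial. Outside psm the highest mean at 20 dph was that of uchl3, with 40.6 ± 5.41 and 35.5 ± 2.54 TPM. Its SD overlapped that of uchl5 in Commercial, with 38.28 ± 2.985 TPM, and that of ube2na in Select, with 35.41 ± 6.507 TPM. At 65 dph the highest mean outside psm was that of uchl5 in Commercial, with 48.0 ± 6.61 TPM, and of fbxo2 in Select, with 46.4 ± 12.1 TPM. Each had an SD that overlapped that of the next. The order of psmb13a and psmb2 differed between the ages by their means as well. In Commercial, psmb2 had 102 ± 9.21 TPM at 20 dph and 76.8 ± 18.4 TPM at 65 dph, and psmb13a 70.1 ± 4.98 and 97.6 ± 11.3 TPM. The spread between libraries of a group, as the coefficient of variation of CPM, had a median of 15.7% over tested members. It was lowest for fbxo42, at 6.87%, and fbxo9, at 7.20%, and highest for usp53b, at 142%, and fbxo32, at 74.0%. By class the median was 10.96% for the non-ATPase genes of the 19S class, 14.3% for the conjugating enzymes and 20.2% for the F-box genes.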

How the data were processed

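Per the labels' protocols, poly(A) RNA of whole intestine was made into stranded libraries and sequenced as read pairs on a NextSeq500. Per the submitters' processing notes the authors used Salmon 1.2.1, which divides reads that match several transcripts between them. The sources used here name no transcript set, genome build or read filter. As per the file headers, each deposited table lists 78931 transcripts with an expected count, not normalised, of which 59.9% of the values above 0 were not whole, and a TPM, scaled by the authors for length and depth. Transcripts were paired without version with RefSeq's gene list for USDA_OmykA_1.1, used for names only, and 42376 matched, with 66.5% of counts. The other 36555 were kept as single features.

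The expected counts of a gene's transcripts were added up and rounded. TPM was summed per gene for levels between genes and for 1 alternative test. Tests used edgeR 4.0.16 in R 4.3.3 with TMM scaling, a filter on low counts (filterByExpr, grouped) and 1 model of 4 means for all 20 libraries, fitted with the robust option. Its quasi-likelihood F-test, 2-sided, was adjusted by Benjamini-Hochberg across 32166 features, and calls were made below 0.05. Where no tool is named, an adjusted p is edgeR's. CPM is the count per TMM-scaled library size. The standard error of a log2 fold change is its size over the square root of F. Libraries held 7314588 to 13682738 counts, so counting error is largest for members under 1 CPM. Alternatives were DESeq2 1.42.0, limma-voom of limma 3.58.1, RLE scaling, other filters, only the groups compared, the replicate number as a block, and libraries left out. Scaling by library size without TMM, and limma (trend) on log2 TPM with a pseudocount of 1 over the same features, were added after the data were seen. The scripts were tested on simulated data.

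Members and lists were chosen with earlier results of these data known. The genes named were the 12 called members with the highest and the 12 with the lowest fold change per age contrast at a mean log2 CPM of at least 1, the 4 lowest p in each direction in the other contrasts, per class the highest TPM and the lowest p in each direction, and psm genes. Others are said to be named after their values were seen. Of the list of other pathway genes and of the markers, rnf40 and rrm2b were dropped after the matches were seen, since they belong to other genes than those listed. Counts that leave out libraries are alternatives of the same fit. One proteasome gene and the sequences of members are not reported here.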

Additional observations from a re-analysis of the deposited data

Results flagged for a closer look

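In each of 232 groups of 5 libraries (58 named members in 4 groups) the highest and lowest library were compared with the rest, and 17 stood far from the other 4 of their group. Chance alone flags about 1 in 20 such groups. Single libraries recurred. Commercial 20 dph replicate 5 was low for psmc6 (45.9 CPM, next 62.2) and usp4 (64.4 CPM, next 81.5) and high for fbxo9 (50.1 CPM, next 46.7) and otud5a (22.6 CPM, next 14.1). Commercial 65 dph replicate 2 was high for fbxl2 (2.53 CPM, next 0.624), fbxo45 (2.53 CPM, next 1.16) and ube2e3 (11.9 CPM, next 5.53). Commercial 65 dph replicate 4 was high for psma5 (139 CPM, next 99.0). Select 65 dph replicate 5 was high for ube2e3 (14.5 CPM, next 8.20) and uchl5 (33.3 CPM, next 25.9). Select 20 dph replicate 2 was high for psmg1 (48.2 CPM, next 36.2) and ube2s (16.4 CPM, next 13.04) and low for ube2na (23.4 CPM, next 26.7). Select 20 dph replicate 1 was high for psmd5 (24.6 CPM, next 19.5) and low for ube2c (4.01 CPM, next 5.01), and replicate 4 was high for fbxl3a (5.73 CPM, next 3.73) and usp12a (20.4 CPM, next 9.46). No member differed between the strains in its age effect at the adjusted threshold.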

How the results depend on the processing

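The age results depended on the scaling. RLE and DESeq2 moved the median of all features by under 0.1 (log2) from TMM, while library size and TPM, added after the data were seen, raised it by 0.28 and 0.25 in Commercial and 0.27 and 0.28 in Select with age. Psm genes called lower then numbered 10 (library size) and 8 (TPM) in Commercial and 10 (TPM) in Select, and no member was called between strains or in the difference of age effects. Some age effects of named members changed sign, and not all of them were near 0. Among them, psme3ip1 in Commercial and psme2 in Select had been called lower with TMM. By library size the values that changed sign were psma4 0.035, psmd9 0.209, psme2 0.192, ube3c 0.024, uchl5 0.168 and usp4 0.078 in Commercial, and psmd9 0.05, uchl5 0.197 and usp4 0.065 in Select. With TPM they were psma4 0.156, psmd9 0.311, psme2 0.304, psme3ip1 0.023, ube3c 0.121, uchl5 0.314 and usp4 0.201 in Commercial, and psmd9 0.209, psme2 0.02, uchl5 0.355, usp4 0.23 and usp48 0.072 in Select. Under the other alternatives (filters, RLE, other tools, groups, block, libraries left out) the counts kept within 1.5 times of those reported, except between strains at 20 dph, where DESeq2 called 1 member and edgeR 0. Members called by age numbered 26 to 34 in Commercial and 35 to 41 in Select with 1 library left out, and 27 to 31 and 36 to 41 under the others of these. Members called between strains and in the difference of age effects stayed at 0 in all leave-one-out fits. Psm genes called lower numbered 13 to 16 and 17 to 18 with 1 library left out. Shares of all features for the fits with libraries left out are not given here. The replicate numbers did not pair the libraries: of 30 pairs of same-numbered libraries 1 correlated above 0.1 (range -0.09 to 0.106), and with the number as a replicate block the counts were 30 and 40, with 15 and 17 psm genes lower and 0 elsewhere, and 3 calls of named members were lost. Apart from single libraries and the block, these ended 10 calls of named members, at adjusted p of 0.0504 to 0.143: fbxl3a, fbxo42, psme3, psmg1, psmg4 and ube2e3 in Commercial and fbxo30a, psmb9a, psmg4 and ubr3 in Select. In Select, fbxo2 was -0.12 without Commercial 65 dph replicate 2 and Select 65 dph replicate 5 and -0.12 to 0.11 leaving out 1 library, and ube3c was -0.0070 with DESeq2, -0.0070 with limma-voom, -0.0080 with no filter and -0.064 to 0.068 leaving out 1 library. The cause was not tested. A fit to only the groups compared gives no value for the difference of age effects. Depth limits members under 1 CPM.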

Other observations

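The members not tested had few counts: fbxo15 had 124 counts over all 20 libraries and at most 1.29 CPM, and fbxl13, fbxo36a, fbxo36b and ubxn11 had 6, 1, 13 and 10 counts. The deubiquitinase gene usp53b was tested at low depth, with means of 0.352 and 0.122 CPM at 20 dph and 1.53 and 1.65 CPM at 65 dph in Commercial and Select, and was not called. The gene usp53b was named after its values were seen. Of the 91 members, 56 rested on 1 transcript and 35 on more, at most 10.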
